A study of Mus musculus with 4 samples.

Results

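Of the 577 miRNA names on the array, 5 belong to hairpins that are known to reach Dicer without cleavage by Drosha. They were found by their exact names in each of the 4 scanner files and are mmu-miR-877 and its opposite arm mmu-miR-877*, mmu-miR-1224, mmu-miR-320 and mmu-miR-484, written without the species prefix from here on. The first 3 come from mirtrons and the last 2 from hairpins that start at a transcription start. The names were taken from what is known of how these miRNAs are made, with earlier results of these data known.

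The cells came from the mouse embryonic stem cell line A3-1, kept in medium with LIF and 20% FBS. One group received an siRNA against Lin28a (siLin28a) and the other an siRNA against GFP (siGFP), and both were harvested after 48 h. Each group had 2 replicates, with 1 single-colour Cy3 array for each, made from 100 ng of total RNA. The labels give no genetic change in either group, nothing in the labels says that replicates were separate cultures, and the arrays do not measure Lin28a mRNA or the cap, splicing or processing of any precursor.

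Most miRNAs are cut first by Drosha with DGCR8 in the nucleus and then by Dicer in the cytoplasm. A mirtron is a short intron that folds into a hairpin once it has been spliced and debranched, so the splice sites take the place of the Drosha cut. The hairpins of miR-320 and miR-484 are made directly by RNA polymerase II, carry a 5′ cap and are exported and cut by Dicer. LIN28A is an RNA-binding protein of embryonic stem cells that blocks the maturation of let-7 precursors, partly at the Drosha step and partly at the Dicer step. The comparison of siLin28a with siGFP therefore shows how miRNAs that skip the Drosha step stood after treatment against Lin28a.

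RefSeq sequences were found for 4 of the 5 members and are shown because the probes, the seeds and both kinds of hairpin differ between them. The mature forms are given 5′ to 3′ with the seed, bases 2 to 8, in capitals.
miR-877 (miR-877-5p): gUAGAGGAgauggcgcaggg
miR-877* (miR-877-3p): uGUCCUCUucucccuccuccca
miR-1224 (miR-1224-5p): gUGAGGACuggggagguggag
miR-484: uCAGGCUCaguccccucccgau
The 4 seeds differ from each other, and none occurs at that place in any other of 1679 mature mouse miRNA sequences. All 4 are rich in G and C, at 65%, 59.1%, 66.7% and 63.6% in the order shown, against a median of 52.2% over those 1679. The array's plain name miR-1224 is taken as the 5p arm, which carried that name before arms were numbered. The files give no probe sequence to check this. The positions of miR-877 and miR-877* on the array lie as far apart as those of the RefSeq 5p and 3p arms.

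The hairpins are shown with their first and last 2 bases in capitals, since a mirtron begins with the GU of a splice donor and ends with the AG of an acceptor.
Mir877: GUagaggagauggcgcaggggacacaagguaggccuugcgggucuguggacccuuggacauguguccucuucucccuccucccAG
Mir1224: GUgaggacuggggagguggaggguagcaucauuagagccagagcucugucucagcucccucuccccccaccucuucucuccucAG
Mir484: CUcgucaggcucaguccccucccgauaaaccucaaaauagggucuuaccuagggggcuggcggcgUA
Both mirtron hairpins are 85 bases long and have these ends, as have 30 of 1005 mouse hairpins in RefSeq (2.99%). The hairpin of Mir484 is 67 bases long and does not. In the same build, GRCm38.p6, Mir877 lies at chr17:35960730-35960814 on the minus strand inside Abcf1, which encodes an ATP-binding protein that acts in translation initiation. Mir1224 lies at chr16:20604452-20604536 on the plus strand inside Vwa5b2. Mir484, at chr16:14159626-14159692 on the plus strand, lies in no coding gene and 348 bases from Marf1. Mir320, at chr14:70443510-70443591, lies in none either and 39 bases from Polr3d, which encodes a subunit of RNA polymerase III. GGAG, the letters LIN28A is known to bind in let-7 loops, was searched on the RNA strand only. It occurs 1 time in the Mir877 hairpin, 2 times in Mir1224 and 0 times in Mir484, and somewhere in 44.5% of all hairpins. In neither mirtron does it lie between the annotated arms, where 8.07% of 644 hairpins with both arms hold it.

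Probe targets were placed by the files in build mm9. miR-877 has 4 nested probes that share the end at 36097740 on chromosome 17 and cover 10 to 13 bases, up to 36097752. The 4 probes of miR-877* start at 36097676 and cover 14 to 17 bases. miR-1224 has 4 probes of 9 to 12 bases ending at 20604545 on chromosome 16, miR-484 has 2 of 15 and 16 bases ending at 14159744 on that chromosome, and miR-320 has 2 of 12 and 13 bases ending at 70843385 on chromosome 14. Over all mapped probes of the array the target was 9 to 24 bases long with a median of 17, so the shortest miR-1224 probe is as short as any. Nested probes share most of their target and are read on the same RNA, so they are no replicates of a condition. If the shared end is the 3′ end of the miRNA, the last 9 bases of miR-1224-5p are also found in 1 other mature sequence, miR-8104, and the shortest targets of miR-877, miR-877* and miR-484 in 0 others.

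The arrays themselves differed in brightness. With no scaling between arrays, 67 of 231 tested miRNAs were higher with siLin28a and 3 lower at an unadjusted limma p below 0.05. The 75th percentile of signal over probes well above background on all arrays, by which each array was divided, was 248 and 265 for siLin28a and 226 and 220 for siGFP, and no spot was saturated. All 6 miRNAs fixed as embryonic stem cell markers, from the miR-290 cluster, were detected on all 4 arrays, with summed signals of 65765 to 68201 units for siLin28a and 59203 to 59534 for siGFP. Of the markers of other cell types, 3 of 6 fibroblast, 3 of 4 neural and 2 of 4 blood miRNAs were detected on all arrays, with sums of 386 to 418, 244 to 330 and 110 to 157 units for siLin28a and 313 to 376, 209 to 255 and 99.6 to 125 for siGFP. None of the 4 muscle or 2 endoderm miRNAs was detected on any array, and their sums were below 0 on all arrays. Of 5 miRNAs of primed pluripotent cells, 4 were detected on none and 0 on all, with sums of 20.0 to 42.9 units for siLin28a and 10.5 to 27.6 for siGFP. The part of brightness and of other cells in the differences below was not tested. Fewer cells that make a miRNA and less of it per cell cannot be told apart in these bulk samples.

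miR-877, the guide arm of the Abcf1 mirtron, was the member that stood furthest apart between the groups. Its total signal was 140 and 162 units with siLin28a and 91.5 and 73.8 units with siGFP. This value per miRNA comes from the scanner software. It is not a plain sum of the probe signals and was not scaled between arrays. Both siLin28a arrays lay above both siGFP arrays. After scaling, the log2 signal averaged over its probes was -1.34 and -1.25 with siLin28a and -1.78 and -2.12 with siGFP. On this scale 0 is the array's 75th percentile over only those probes well above background on all arrays. The groups did not overlap, and the siGFP arrays differed from each other more than the siLin28a arrays did. The mean was -1.30 ± 0.07 with siLin28a and -1.95 ± 0.24 with siGFP (SD, n = 2 each), a difference of 0.66 on the log2 scale (SE 0.17, 95% interval 0.16 to 1.15), or 1.58-fold higher. In the fit over all 231 tested miRNAs it did not pass after Benjamini-Hochberg adjustment (limma adjusted p = 0.159). The limma adjusted p lay between 0.000762 and 0.715 in the alternatives.

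**Figure D1:**
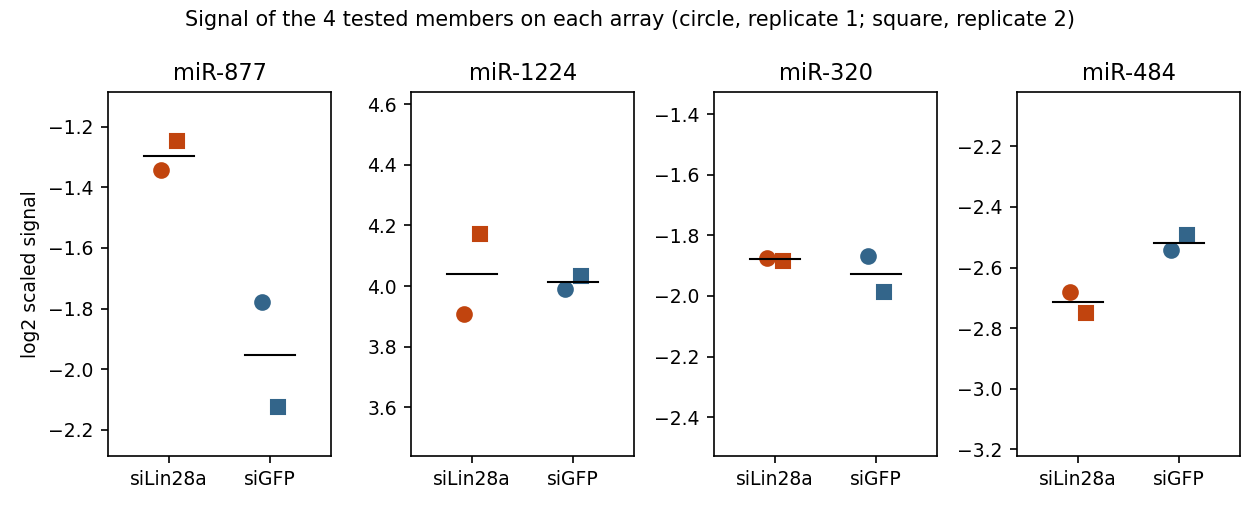
The log2 scaled signal of each tested member (vertical axis, own range and equal span in each panel) is plotted for the 2 siLin28a arrays on the left and the 2 siGFP arrays on the right, with circles for replicate 1, squares for replicate 2 and a line at the mean. The groups are apart for miR-877, where siLin28a is higher, and for miR-484, where it is lower, and they overlap for miR-1224 and miR-320.

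All 4 probes of miR-877 had the same order of arrays. The probe with the 10-base target had mean spot signals of 86.2 and 96.8 units with siLin28a and 56.1 and 43.5 units with siGFP. The probe with the 13-base target had 107 and 121.8 units with siLin28a and 72.5 and 55.5 units with siGFP. All spots kept were well above background, 20 and 19 on the siLin28a arrays and 19 and 19 on the siGFP arrays, and spots of 1 probe varied by 0.371% to 8.47% (CV) with siLin28a and by 3.2% to 9.67% with siGFP. The scaled difference per probe was between 0.61 and 0.68 on the log2 scale. Between arrays of the same replicate number, miR-877 differed by 0.44 for replicate 1 and by 0.88 for replicate 2. Replicate 1 lay at positions 1 and 2 of the slide and replicate 2 at positions 3 and 4.

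The size of the miR-877 difference depended on how background and brightness were treated, while its direction was the same in all 20 alternatives. It was 0.86 with no scaling between arrays and 0.48 when all probes set the scale. After background correction by normexp it was 0.14, and 0.31 when normexp was fitted without outlier spots. Both normexp settings added an offset of 50 units, where the miR-877 probe means were 43.5 to 121.8 units. An added constant makes log2 differences of dim signals smaller, and its part here was not tested. Without filtering dim miRNAs, miR-877 passed the test (limma adjusted p = 0.000762 over 577 miRNAs). In that fit most miRNAs lay at the floor and the prior degrees of freedom were infinite. Leaving out 1 array in turn gave 0.48 to 0.83, and it passed in none of these fits.

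miR-877*, the opposite arm of the same hairpin, was too dim for the fit. Its total signal was 20.3 and 25.1 units with siLin28a and 15.4 and 16.2 units with siGFP. Both siLin28a values lay above both siGFP values, and the software called it detected on both siLin28a arrays and on 1 of the 2 siGFP arrays. How many of all miRNAs had this order of total signals was not counted. In the scaled data of the main fit, 30.7% of the 231 tested miRNAs had it. Divided by the 75th percentile of total signal over miRNAs detected on all arrays, the values of miR-877* were 0.0733 and 0.0872 with siLin28a and 0.0667 and 0.0694 with siGFP. Of its spots, 1 of 19 and 7 of 20 were well above background on the siLin28a arrays, and 0 of 19 and 0 of 20 on the siGFP arrays. No probe reached the level needed on both arrays of a group, and no fold is given. With the total gene signal, where it was tested, its log2 difference was 0.23 (SE 0.19, limma adjusted p = 0.463 over 264 miRNAs).

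miR-1224, the product of the Vwa5b2 mirtron, had overlapping groups. Its total signal was 8686 and 11323 units with siLin28a and 8128 and 8771 units with siGFP. The first siLin28a array lay between the siGFP arrays and the second above both. The log2 scaled signal was 3.91 and 4.17 with siLin28a and 3.99 and 4.03 with siGFP. The siLin28a arrays enclosed the siGFP arrays. The means were 4.04 ± 0.19 with siLin28a and 4.01 ± 0.03 with siGFP (SD, n = 2 each), a difference of 0.03 (SE 0.11, 95% interval -0.30 to 0.35, limma adjusted p = 0.887). Mean spot signals were 509 to 701 units for the 9-base target and 11859 to 15453 units for the 12-base target. The averaged level joins these unlike probes. All 4 probes had overlapping groups, with differences from -0.01 to 0.06, and all 20 spots on each array were well above background. The sign of so small a difference depended on the processing, as with the scaling over all probes, where it was -0.15.

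miR-320, from the capped hairpin beside Polr3d, had total signals of 96.7 and 105 units with siLin28a and 86.0 and 81.0 units with siGFP. Both siLin28a arrays were higher before scaling. The log2 scaled signal was -1.87 and -1.88 with siLin28a and -1.87 and -1.99 with siGFP. After scaling the groups overlapped, and 3 of the 4 arrays lay within a narrow band. The means were -1.88 ± 0.01 with siLin28a and -1.93 ± 0.08 with siGFP (SD, n = 2 each), a difference of 0.05 (SE 0.12, 95% interval -0.30 to 0.39, limma adjusted p = 0.802). The probe with the 12-base target differed by 0.02 and that with the 13-base target by 0.08. The sign turned in 8 of 20 alternatives.

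miR-484, from the other capped hairpin, had total signals of 60.4 and 62.3 units with siLin28a and 58.0 and 62.2 units with siGFP. These unscaled values overlapped. The log2 scaled signal was -2.68 and -2.75 with siLin28a and -2.54 and -2.49 with siGFP. After scaling, both siLin28a arrays lay below both siGFP arrays. The means were -2.71 ± 0.05 with siLin28a and -2.52 ± 0.04 with siGFP (SD, n = 2 each), a difference of -0.20 (SE 0.08, 95% interval -0.43 to 0.04, limma adjusted p = 0.229), or 0.873-fold. The probe with the 15-base target differed by -0.24 and that with the 16-base target by -0.16. The 15-base probe lay at the floor for dim signals on siLin28a replicate 2, and with a floor 4 times lower the miRNA differed by -0.21. The difference was -0.0094 with no scaling between arrays. The sign was negative in all 20 alternatives.

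**Figure D2:**
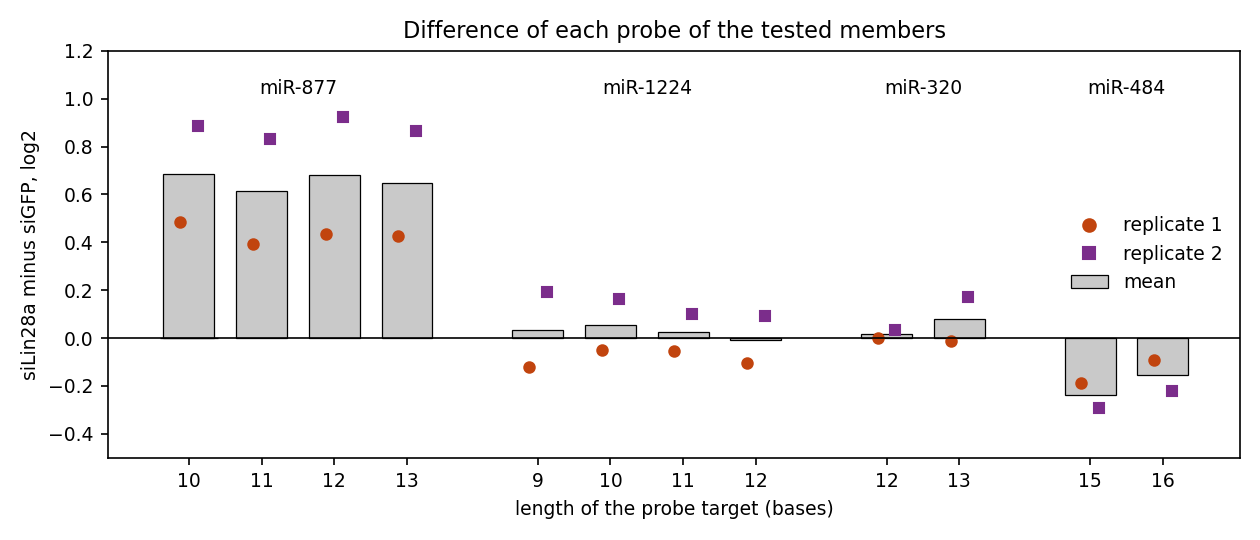
Bars give siLin28a minus siGFP in log2 scaled signal (vertical axis) for each of the 12 tested probes, ordered by member and by target length in bases (horizontal axis), with circles for the difference between the replicate 1 arrays and squares for replicate 2. The miR-877 probes lie between 0.61 and 0.68, the miR-484 probes at -0.24 and -0.16, and replicate 1 and replicate 2 lie on opposite sides of 0 for miR-1224.

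Read against all tested miRNAs, none of the 4 tested members was called at an adjusted p below 0.05, where 2 of 231 miRNAs were called (0.866%). The 2 were let-7a, which differed by 1.12 (SE 0.07), and let-7f, which differed by 1.17 (SE 0.07), each with limma adjusted p = 0.0210. Neither was well above background on a siGFP array. Both had a siGFP mean at the floor (-3.40 on the log2 scale), which leaves no spread in that group. Their differences, SE and p therefore depend on the floor. An unadjusted p below 0.05 with a higher mean was found for 1 member, miR-877, and for 13.4% of all tested miRNAs. Groups did not overlap for 2 of the 4 members, miR-877 higher and miR-484 lower, against 61.5% of all tested miRNAs in either direction and 30.7% in each. The members' differences ran from -0.20 to 0.66 with a median of 0.04, and those of all tested miRNAs from -0.83 to 1.17 with a median of 0. By size, miR-877 was number 19 among the higher differences.

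**Figure D3:**
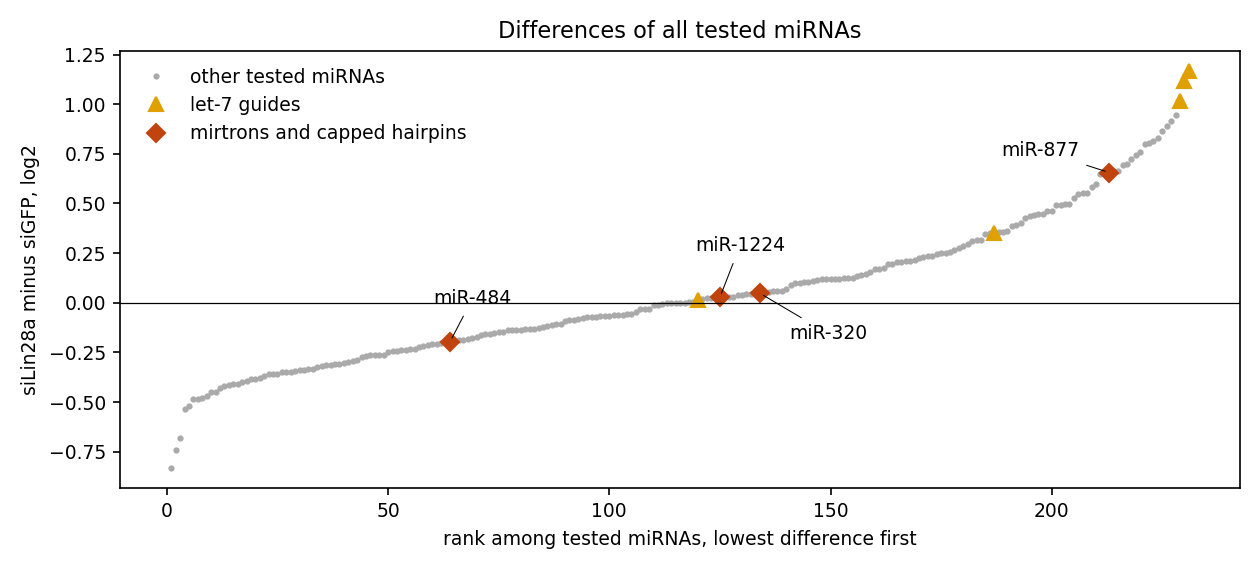
The log2 difference, siLin28a minus siGFP (vertical axis), of 231 tested miRNAs is plotted in order of size (horizontal axis, rank), with diamonds for the 4 tested members and triangles for the 5 tested let-7 guides. miR-877 lies in the upper tail below the highest let-7 guides, miR-1224 and miR-320 lie near 0, and miR-484 lies below it.

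Within the group, the members were set against each other on each array. miR-877 minus miR-1224, both mirtrons, was -5.25 and -5.42 with siLin28a and -5.77 and -6.16 with siGFP on the log2 scale, so that the contrast was higher by 0.63 with siLin28a. miR-877 minus miR-320 was higher by 0.61 and miR-877 minus miR-484 by 0.85, each without overlap of the groups. miR-320 minus miR-484, the capped hairpins, was 0.81 and 0.86 with siLin28a and 0.68 and 0.51 with siGFP, a difference of 0.24. miR-1224 minus miR-484 differed by 0.22 and miR-1224 minus miR-320 by -0.02. Each of the first 5 of these 6 pairs had p = 0.333 and the last p = 1 in a two-sided exact permutation test (0.4 and 1 after Benjamini-Hochberg adjustment over 6 pairs). With 2 arrays against 2, 0.333 is the smallest p the test can give. The scaling factor of an array cancels in the contrasts among miR-877, miR-1224 and miR-320, but not fully in the 3 with miR-484, whose 15-base probe lay at the floor on siLin28a replicate 2.

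The scaled pattern of each member over the 4 arrays was compared with every tested miRNA by the root mean square distance of log2 values after subtraction of each miRNA's mean. The 3 closest to miR-877 were miR-685, miR-721 and miR-7a, at distances of 0.0509, 0.0762 and 0.0877 against a median of 0.384 over all. Their own differences were 0.74, 0.67 and 0.83. Closest to miR-1224 were miR-139-3p, miR-292-3p and miR-134, at 0.0288 to 0.0424 against a median of 0.177. Closest to miR-320 were miR-712, miR-672 and miR-710, at 0.0129 to 0.0418 against 0.185, and closest to miR-484 were miR-17*, miR-409-5p and miR-291a-5p, at 0.0287 to 0.0405 against 0.168. With 4 arrays these distances are a description only.

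Other miRNAs reported to bypass part of the usual pathway were listed as well, and 4 of the 9 listed are on the array. miR-344, also reported from a capped hairpin, was the only one tested. It had total signals of 44.5 and 72.3 units with siLin28a and 9.08 and 5.82 units with siGFP and was called detected on the siLin28a arrays alone. Its log2 difference was 0.69 (SE 0.22, limma adjusted p = 0.169), computed against the floor. miR-451, which AGO2 cuts in place of Dicer, was at 3.32 and 4.74 units with siLin28a and -1.43 and -1.97 units with siGFP and was detected on no array. miR-668 and miR-702, reported as independent of Drosha, were not detected either, with miR-668 between -4.63 and -2.66 units with siLin28a and between -4.84 and -4.56 with siGFP, and miR-702 between 4.16 and 6.09 with siLin28a and between 5.86 and 6.46 with siGFP.

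For comparison, miRNAs that need Drosha were described by the same values. In the miR-290 cluster, 0 of 13 tested members were called, 4 had a higher and 9 a lower mean, and the median difference was -0.07. In the miR-15/16 family, 0 of 6 were called, with a median of 0.01 and a range of -0.07 to 0.13. In the miR-17-92 cluster, 0 of 8 were called and all 8 were lower without overlap, with a median of -0.31. Of the let-7 guides, 2 of 5 were called, with a median of 1.01, and all 5 entered through the siLin28a arrays alone. miR-877 lay outside the range of the miR-290, miR-15/16 and miR-17-92 members tested, whose highest values were 0.21, 0.13 and -0.24. It lay within the range of the tested let-7 guides, from 0.016 to 1.17. These lists hold only part of the tested miRNAs. Among all 231, miR-877 was number 19 of the higher differences. Of the miRNAs in none of these lists, miR-7a (0.83), miR-685 (0.74) and miR-721 (0.67) were among those above it. No test of the members against these lists was made.

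**Figure D4:**
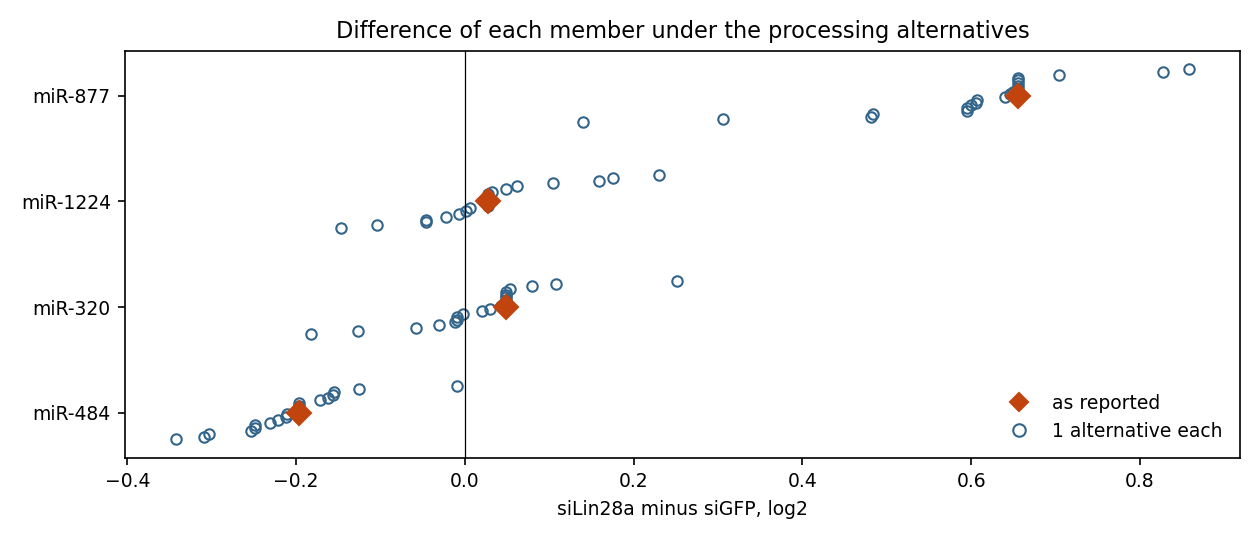
The log2 difference, siLin28a minus siGFP (horizontal axis), of each tested member is plotted as reported (diamond) and under each of 20 alternatives (open circles). miR-877 stays above 0 between 0.14 and 0.86, miR-484 stays below 0 between -0.34 and -0.0094, and miR-1224 and miR-320 lie on both sides of 0.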

How the data were processed

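Per the file headers, Agilent Feature Extraction, version 9.5.1.1, made the deposited intensity values (9.5.3.1 per the submitters' processing notes), on array design 019119. The processed intensity is the spot signal less a background surface within the array. The table deposited for the whole series holds the total gene signal (100% of values above 10 within 5%) with no scaling, with medians of 6.3 and 9.1 for siLin28a and 4.7 and 4.7 for siGFP.

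Control spots and spots flagged as outliers (3.21% to 4.32% of 11540) were left out and the rest averaged over 1712 probes. Where 50% or more of the spots of a probe carried the flag for signal above background, the probe was taken to carry it. Arrays were divided by the 75th percentile over 425 probes well above background on all 4, floored at 0.0948 and taken to log2. The 477 probes that met this on both siLin28a or both siGFP arrays were averaged to 231 miRNAs, and 4 of the 5 members passed. The floor shrinks the differences of dim miRNAs and leaves no spread in a group whose arrays all lie at it.

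The groups' comparison used limma 3.58.1 under R 4.3.3 (eBayes with a trend, 2 residual and 1.64 prior degrees of freedom), two-sided, with Benjamini-Hochberg adjustment over all 231. The limma fit alone was run on simulated, independent log2 values. The scaling, filter, floor and averaging were not simulated. All 4 arrays lay on 1 slide, so no slide block was fitted. The number of arrays limits the precision, and a p-value here reflects only how these arrays varied, possibly for technical reasons. The members, lists and tests were chosen with earlier results of these data known. Named are all members, called miRNAs, the 3 closest to each tested member and the other miRNAs of unusual processing. Sequences, gene positions and hairpins are from RefSeq, build GRCm38.p6, and probe positions from the files, build mm9. The 20 alternatives changed background correction, signal, scaling, filter, floor, summaries, prior, block and arrays.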

Additional observations from a re-analysis of the deposited data

Results flagged for a closer look

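miR-877*, the arm opposite miR-877, lay outside the fit and its total signal was higher on both siLin28a arrays, at 20.3 and 25.1 units, than on both siGFP arrays, at 15.4 and 16.2 units. Array brightness moved in the same direction, and its part in this was not tested. After scaling, 30.7% of the 231 tested miRNAs were higher with siLin28a without overlap. That share was not counted on the total signal. With 2 arrays in each group outlying arrays were not tested for.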

How the results depend on the processing

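The direction of miR-877 and of miR-484 was the same in all 20 alternatives, of which 1, fitting normexp without outlier spots, was chosen after seeing the data. The alternatives reuse the same arrays and most share a scaling step, so they are not independent. With no scaling between arrays miR-484 differed by -0.0094. miR-484 was called in none. miR-877 was called in 1, with no filter on dim probes, at the same difference of 0.66. miR-1224 turned to -0.046 with the total gene signal, -0.046 with the series value table, -0.15 with the scaling over all probes, -0.023 with scaling by the median and -0.0071 with the brightest probe. miR-320 turned to -0.18 with normexp, -0.030 with normexp fitted without outlier spots, -0.0090 with the total gene signal, -0.0096 with the series value table, -0.13 with the scaling over all probes, -0.058 with quantile normalization and -0.0018 with scaling by the median. Leaving out 1 array gave -0.10 to 0.16 for miR-1224, -0.011 to 0.11 for miR-320, -0.23 to -0.16 for miR-484 and 0.48 to 0.83 for miR-877. The cause was not tested. The limma count of higher miRNAs, 2 as reported, was 5 with normexp, 8 with normexp fitted without outlier spots, 8 with the total gene signal, 8 with the series value table, 8 with a floor 4 times lower and 40 with no filter. It was 0 with the scaling over all probes (18 at an unadjusted p below 0.05), 0 with only probes well above background on all arrays (23) and 0 to 10 with 1 array left out (10 without siLin28a replicate 1, 7 without siLin28a replicate 2 and 0 without either siGFP replicate, with 15 and 10 at an unadjusted p below 0.05). The count of lower miRNAs, 0 as reported (26 at an unadjusted p below 0.05), was 2 with normexp, 2 with normexp fitted without outlier spots, 8 with no filter and 0 to 1 with 1 array left out. The filter for probes well above background on all arrays left out let-7a and let-7f before the test, so neither could be called there. In the fit blocked by replicate number the counts of higher and lower miRNAs were 2 and 0, and no member's call changed (miR-877 limma adjusted p = 0.0901). Replicate 1 minus replicate 2 correlated between the groups across miRNAs (r = 0.71), but with 2 pairs and no shared batch in the labels the numbers were not taken to pair the arrays. Signals near the floor, as for miR-877* and 1 probe of miR-484, limit what can be measured.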
